A study of Mus musculus with 18 samples.

Results

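The 10 genes described here encode transporters, channels, gap junction proteins and enzymes with which astrocytes keep the extracellular space of the brain in order: Slc1a2, Slc1a3, Glul, Kcnj10, Atp1b2, Gja1, Gjb6, Aldh1l1, Aldoc and Slc7a10. They were chosen by gene name from a table of read counts for 55487 genes, 10 of 10 names were found, and all of them passed the filter on low counts that left 17414 genes for testing. They are among the genes by which astrocytes are commonly recognised. Library totals were 15925432 to 21030935 assigned reads, and the 10 genes together took 0.638% to 0.849% of them.

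Astrocytes take up the glutamate that neurons release, amidate it to glutamine and return the glutamine to neurons for renewed transmitter synthesis. They also clear the potassium that active neurons release, and gap junctions spread both ions and metabolites through the astrocyte network. In Alzheimer's disease and in mice with amyloid plaques, astrocytes near plaques become reactive and express genes such as Gfap, which encodes their main intermediate filament. Whether the homeostatic genes change with amyloid, and whether loss of neuronal farnesyltransferase alters them, are the questions that the 3 genotypes address.

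Frontal cortex was taken at 9 to 10 months of age from 6 WT, 6 APP/PS1 and 6 APP/PS1/FTnKO mice, each with 3 females and 3 males. APP/PS1 mice carry 2 transgenes, a chimeric mouse and human amyloid precursor protein with the Swedish mutation and a human presenilin lacking an exon, and deposit amyloid plaques. In APP/PS1/FTnKO mice both copies of the floxed gene for the farnesyltransferase beta subunit are in addition deleted by Cre recombinase driven by the CaMKIIalpha promoter, which is active in forebrain excitatory neurons and not in astrocytes. By the methods of the study all mice were littermates with floxed alleles, WT and APP/PS1 mice being without Cre, whereas the series record names C57BL/6J as the WT strain, and the background of the WT group is therefore not settled. In RNA from whole tissue, fewer astrocytes and less RNA per astrocyte cannot be told apart.

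Levels below are normalized counts per 1000000 reads (CPM). WT mouse 19622 stood apart from all other libraries and was kept out of the genotype comparisons, which therefore rest on 17 mice. Its library held 0 reads of Emx1, the gene of a transcription factor of the cerebral cortex, which was at 5.94 to 11.8 CPM in the other 17 mice, while all 8 measured genes of a cerebellar list were above their range in those mice, among them Cbln3 at 864 CPM against at most 0.995. These markers go against the frontal cortex label of this library. In the other 17 mice Fntb, the targeted gene, was at 7.84 to 14.7 CPM in APP/PS1/FTnKO mice. It was at 14.2, 14.3, 14.6, 17.1, 28.7 and 32.1 CPM in the APP/PS1 mice and 14.1, 16.8, 16.9, 30.8 and 32.2 in the WT mice. Mice 19553 and 19554 (APP/PS1) and 19718 and 19721 (WT) thus stood well above the rest, and the other 4 APP/PS1 mice lay close to or within the range of the APP/PS1/FTnKO mice. The Fntb difference of APP/PS1/FTnKO from APP/PS1 mice was -0.77 on the log2 scale (SE 0.26, FDR 0.251, edgeR) in tissue where other cells keep the gene, and App rose by 0.89 log2 units in APP/PS1 against WT mice (FDR 6.7e-05).

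Levels of the 10 genes in WT mice spanned a wide range. Per kilobase of annotated exon, Glul was highest with 429 ± 11.2 CPM per kb (SD, n = 5), followed by Slc1a2 with 242 ± 27.1 and Aldoc with 222 ± 7.08, whose ranges overlapped. Atp1b2 (93.5 ± 1.89), Slc1a3 (76.4 ± 3.17) and Kcnj10 (35.8 ± 4.12) came next and did not overlap with their neighbours in the order. The lowest levels were those of Gja1 (17.7 ± 1.29), Gjb6 (16.7 ± 1.51), Slc7a10 (14.2 ± 1.51) and Aldh1l1 (14.2 ± 0.925), and each of these overlapped with the next. Replicate spread was smallest in WT mice, where the coefficient of variation was 2.02% to 11.5% (median 6.9%) and was the lowest of the 3 genotypes for 9 of the 10 genes. It was 7.76% to 18.6% in APP/PS1 mice and 8.96% to 19.2% in APP/PS1/FTnKO mice.

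**Figure D1:**
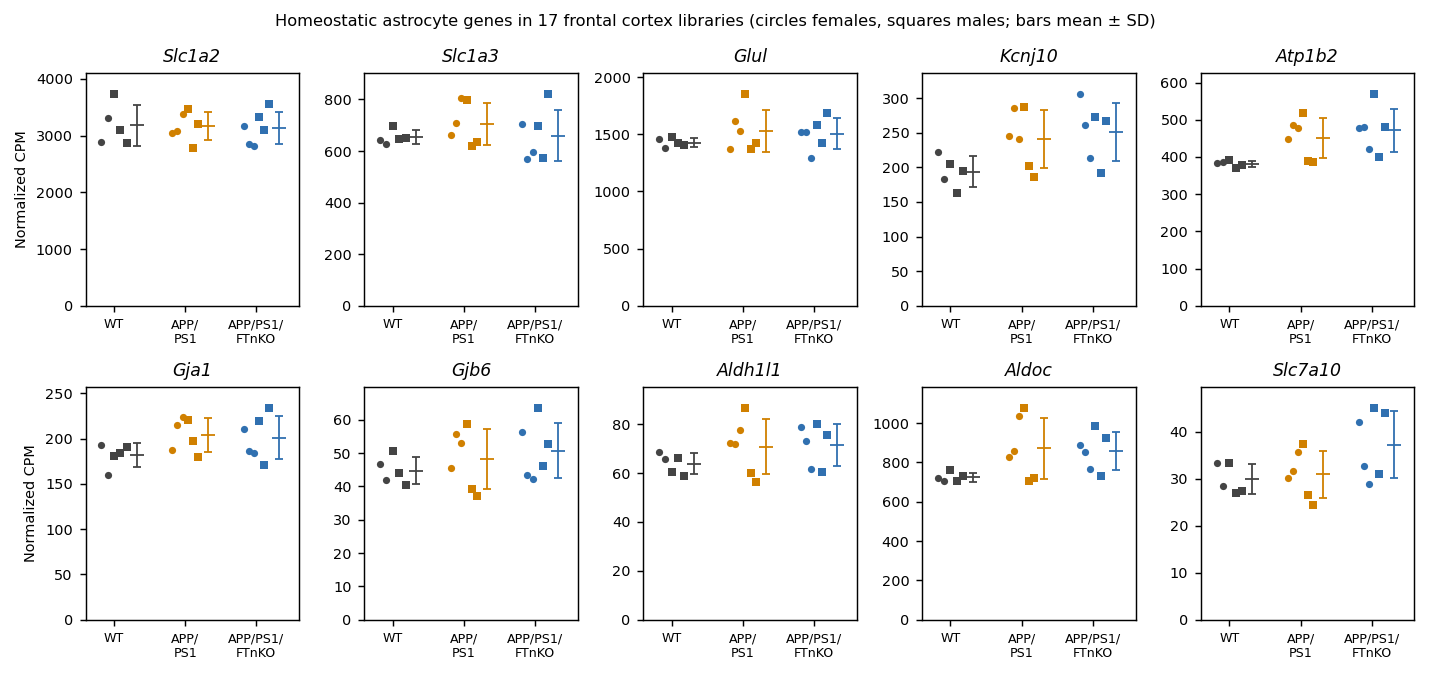
Normalized CPM of the 10 genes in each of 17 mice by genotype, with WT mouse 19622 left out. Circles are females, squares are males, and bars give the mean and SD. Atp1b2 is the gene whose APP/PS1/FTnKO mice (400 to 568.4) all sit above the WT mice (370 to 391).

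None of the 10 genes passed an FDR of 0.05 between any pair of genotypes in the edgeR fit to 17 mice. APP/PS1 against WT mice gave 0 of 10 calls with 1.5% of all tested genes called, APP/PS1/FTnKO against APP/PS1 mice 0 of 10 with 0.327% called, and APP/PS1/FTnKO against WT mice 0 of 10 with 3.87% called. At an unadjusted p under 0.05 the counts were 3, 1 and 4 of 10, beside 2431, 2003 and 3852 of all 17414 tested genes. DESeq2 on the same mice gave 0, 0 and 2 of 10, where it called 2.14%, 1.38% and 7.67% of the genes it tested. The 2 genes that DESeq2 called higher in APP/PS1/FTnKO than in WT mice were Atp1b2 (FDR 0.018) and Kcnj10 (FDR 0.045).

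Most estimates in both amyloid groups (APP/PS1 and APP/PS1/FTnKO) against WT mice were positive, with 0 calls by edgeR. In APP/PS1 mice 10 of 10 genes had a positive log2 fold change, with a median of 0.13 beside -0.0023 over all tested genes. In APP/PS1/FTnKO mice 9 of 10 did, with a median of 0.17 beside 0.0053. When RNA integrity, which was lower in some amyloid mice, was added to the fit, 5 of the 10 estimates in APP/PS1 mice turned negative and that of Atp1b2 went from 0.24 to 0.053. Both comparisons use the same 5 WT mice. Between the amyloid groups, 5 estimates were positive and 5 negative, with a median of 0.0016 beside -0.0016 over all genes.

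**Figure D2:**
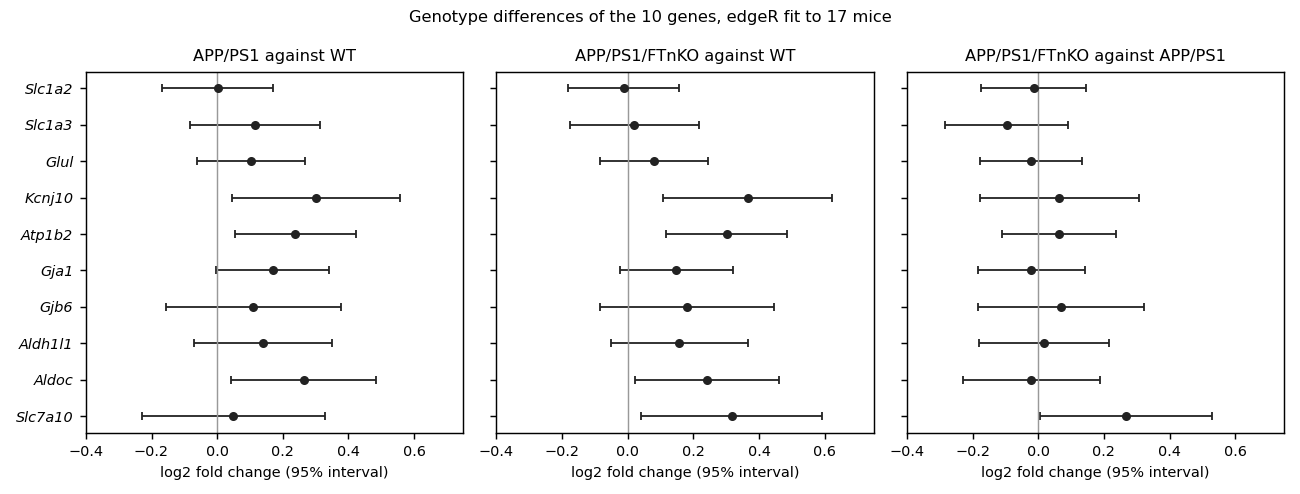
Log2 fold changes of the 10 genes for the 3 genotype comparisons in 17 mice, with 95% intervals from the edgeR fit that are not adjusted for the number of genes. Points lie between 0.0014 and 0.30 for APP/PS1 against WT mice and between -0.10 and 0.27 for APP/PS1/FTnKO against APP/PS1 mice.

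For glutamate uptake and conversion, the transcripts of Slc1a2, Slc1a3 and Glul passed the test in none of the 3 comparisons. Slc1a2 (ENSMUSG00000005089, GRCm38 chr2:102658659-102790784, plus strand) encodes the main glutamate transporter of forebrain astrocytes. Its level in the 5 WT mice was 2861, 2890, 3106, 3310 and 3726 CPM. In APP/PS1 mice it was 2789 to 3466 (median 3143) and in APP/PS1/FTnKO mice 2823 to 3562 (median 3131). The highest value was that of a WT mouse, and the ranges of all 3 genotypes overlapped almost entirely. The log2 fold change was 0.0014 in APP/PS1 mice (95% interval -0.17 to 0.17, FDR 0.995) and -0.012 in APP/PS1/FTnKO mice (-0.18 to 0.16, FDR 0.949) against WT mice.

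Slc1a3 (ENSMUSG00000005360, chr15:8634124-8710764, minus strand) encodes the other astrocytic glutamate transporter, which prevails in radial glia and the cerebellum. It was at 627, 642, 647, 649 and 698 CPM in WT mice. It ranged from 619 to 807 (median 684) in APP/PS1 mice and from 570 to 820 (median 646) in APP/PS1/FTnKO mice, so that the spread around similar medians was wider in both amyloid groups. Against WT mice the difference was 0.12 in APP/PS1 mice (SE 0.094, FDR 0.609) and 0.02 in APP/PS1/FTnKO mice (SE 0.094, FDR 0.926).

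Glul (ENSMUSG00000026473, chr1:153899944-153909723, plus strand) encodes glutamine synthetase, which turns the glutamate taken up into glutamine. WT mice had 1380, 1405, 1421, 1456 and 1472 CPM. APP/PS1 mice had 1372 to 1849 (median 1473) and APP/PS1/FTnKO mice 1290 to 1685 (median 1522). In each amyloid group the range reached both below and above that of the WT mice. The differences from WT mice were 0.10 (SE 0.078, FDR 0.581) and 0.081 (SE 0.078, FDR 0.582).

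On the potassium side, Kcnj10 (ENSMUSG00000044708, chr1:172341210-172374085, plus strand) encodes the inward-rectifier channel through which astrocytes take up potassium. Its level was 163, 184, 194, 205 and 222 CPM in WT mice, 186 to 287 (median 243) in APP/PS1 mice and 191 to 306 (median 264) in APP/PS1/FTnKO mice. In each amyloid group 4 of 6 mice were above the highest WT mouse and the others lay within the WT range. The log2 fold change was 0.30 (SE 0.12, FDR 0.279) in APP/PS1 mice and 0.37 (SE 0.12, FDR 0.095) in APP/PS1/FTnKO mice against WT mice, and 0.064 (SE 0.12, FDR 0.882) between the amyloid groups.

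Atp1b2 (ENSMUSG00000041329, chr11:69599736-69605942, minus strand) encodes the glial beta subunit of the sodium pump, which restores the ion gradients that uptake runs down. The 5 WT mice were close together at 370, 380, 384, 385 and 391 CPM. APP/PS1 mice had 386 to 519 (median 464) and APP/PS1/FTnKO mice 400 to 568.4 (median 479). All 6 APP/PS1/FTnKO mice and 4 of 6 APP/PS1 mice were above every WT mouse, and no other of the 10 genes had groups without overlap in any of the 3 comparisons. Over all tested genes, groups were without overlap for 2.4% in APP/PS1 against WT, 0.97% between the amyloid groups and 5.6% in APP/PS1/FTnKO against WT mice, beside 0, 0 and 1 of the 10 genes. The log2 fold change was 0.24 (95% interval 0.054 to 0.42, FDR 0.226) in APP/PS1 mice and 0.30 (0.12 to 0.48, FDR 0.0613) in APP/PS1/FTnKO mice.

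The Atp1b2 value of APP/PS1/FTnKO against WT mice lay near the threshold and moved with the mice used. Its FDR fell below 0.05 when APP/PS1 mouse 16975 (FDR 0.038), APP/PS1 mouse 19744 (0.044), APP/PS1/FTnKO mouse 19722 (0.042) or APP/PS1/FTnKO mouse 18973 (0.026) was left out, and it was 0.148 without APP/PS1/FTnKO mouse 16974, whose value of 568.4 was the highest. Over all genes, calls went from 674 to 983, 810, 826 and 987 in those 4 fits, in that order, and to 250 without 16974. Over the settings with 17 or fewer mice the log2 fold change was 0.19 to 0.35. With WT mouse 19622 included it turned to -0.073 (FDR 0.904). Without a filter on low counts (FDR 0.0147) and with only these 2 genotypes fitted (FDR 0.0405) Atp1b2 was also called, and its FDR over all settings was 0.0147 to 0.904. Kcnj10 was called without APP/PS1/FTnKO mouse 18973 (0.43, FDR 0.0426) and without a filter (0.37, FDR 0.0188).

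Of the gap junction genes, Gja1 (ENSMUSG00000050953, chr10:56377330-56402513, plus strand) encodes the most abundant connexin of astrocytes. Its level was 160, 181, 185, 190 and 194 CPM in WT mice, 180 to 224 (median 206) in APP/PS1 mice and 171 to 234 (median 199) in APP/PS1/FTnKO mice. Groups overlapped, with 4 and 3 of 6 mice above the highest WT mouse. The differences from WT mice were 0.17 (SE 0.082, FDR 0.37) and 0.15 (SE 0.082, FDR 0.302).

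Gjb6 (ENSMUSG00000040055, chr14:57123303-57133611, minus strand) encodes the second connexin with which astrocytes couple. WT mice had 40.5, 41.8, 44.0, 46.7 and 50.7 CPM. APP/PS1 mice had 37.0 to 58.7 (median 49.2) and APP/PS1/FTnKO mice 42.2 to 63.4 (median 49.4). The lowest level of all was in an APP/PS1 mouse and the highest in an APP/PS1/FTnKO mouse. The differences from WT mice were 0.11 (SE 0.13, FDR 0.74) and 0.18 (SE 0.13, FDR 0.428).

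Of the metabolic enzymes, Aldh1l1 (ENSMUSG00000030088, chr6:90486427-90600203, plus strand) encodes a folate dehydrogenase and is a common pan-astrocyte marker. It was at 58.8, 60.5, 65.7, 66.0 and 68.8 CPM in WT mice, 56.5 to 86.5 (median 72.2) in APP/PS1 mice and 60.5 to 80.1 (median 74.3) in APP/PS1/FTnKO mice. In each amyloid group 4 of 6 mice were above the WT range. The differences from WT mice were 0.14 (SE 0.1, FDR 0.552) and 0.16 (SE 0.1, FDR 0.371).

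Aldoc (ENSMUSG00000017390, chr11:78322968-78327781, plus strand) encodes the brain form of aldolase, a glycolytic enzyme. The WT mice lay between 705 and 762 CPM, at 705, 708, 721, 731 and 762. APP/PS1 mice had 706 to 1075 (median 844) and APP/PS1/FTnKO mice 732 to 984 (median 872). Above the highest WT mouse were 4 of 6 APP/PS1 and 5 of 6 APP/PS1/FTnKO mice. The log2 fold change was 0.26 (SE 0.11, FDR 0.27) in APP/PS1 mice and 0.24 (SE 0.1, FDR 0.185) in APP/PS1/FTnKO mice.

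Slc7a10 (ENSMUSG00000030495, chr7:35186385-35201114, plus strand) encodes an exchanger of small neutral amino acids, among them glycine and D-serine. WT mice had 27.0, 27.4, 28.6, 33.4 and 33.4 CPM. APP/PS1 mice had 24.4 to 37.3 (median 30.8) and APP/PS1/FTnKO mice 28.9 to 45.0 (median 37.4). Its 3 highest values in APP/PS1/FTnKO mice were above all mice of the other genotypes, whereas the other 3 lay within their range. Between the amyloid groups, 2003 of all 17414 tested genes had an unadjusted p under 0.05 in edgeR. Of the 10 genes only Slc7a10 did, at 0.27 log2 units (95% interval 0.0053 to 0.53, FDR 0.423). Against WT mice it differed by 0.32 (SE 0.13, FDR 0.168) in APP/PS1/FTnKO mice and by 0.049 (SE 0.13, FDR 0.906) in APP/PS1 mice.

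Exons of 4 of the genes overlap other annotated genes on the opposite strand: Slc1a2 with Gm13872 over 189 bases, Glul with Teddm2 over 116, Aldh1l1 with Gm15756 over 499 and Slc7a10 with Lrp3 over 377. On the same strand, Glul overlaps Mir8114 over 93 bases and Aldh1l1 overlaps Gm45901 over 105. The strand setting of the counting was not given in the sources used here, so reads in the opposite-strand stretches may not be told apart, and those in the same-strand stretches cannot be.

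Females and males did not differ detectably in these genes. Between the sexes, 0 of 10 genes were called and 0 of 10 had an unadjusted p under 0.05 in edgeR, where 0.0689% of all genes were called. Estimates of females minus males ran from -0.077 for Slc1a2 (SE 0.064) to 0.135 for Kcnj10 (SE 0.097). For a genotype effect that differs between the sexes, 0 of 10 genes were called and 0 of 10 had an unadjusted p under 0.05 in each of the 3 comparisons, as were 0% of all genes. Each sex had 2 or 3 mice of a genotype in this fit.

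Ratios of related genes within a mouse do not depend on library scaling. Slc1a3 to Slc1a2 reads stood at 0.185 to 0.239 and Gjb6 to Gja1 reads at 0.199 to 0.288 over the 17 mice, with overlapping genotypes and adjusted p of 0.343 to 0.788 and 0.51 to 0.788 (two-sided exact permutation tests, 4 ratios in 3 comparisons). The ratio of Atp1b2 to Atp1b1, the neuronal beta subunit of the pump, was 0.271 to 0.327 in WT mice and 0.312 to 0.502 in APP/PS1/FTnKO mice, a log2 difference of 0.41 (exact permutation p = 0.00866, adjusted 0.0519). Aldoc to Aldoa, the more widely expressed aldolase, was 0.424 to 0.505 and 0.489 to 0.751, also a log2 difference of 0.42 (exact permutation p = 0.00866, adjusted 0.0519). In APP/PS1 against WT mice these 2 ratios differed by 0.31 (adjusted p 0.173) and 0.25 (adjusted p 0.343). No ratio passed the adjusted threshold, and without APP/PS1/FTnKO mouse 18973 both ratios did in APP/PS1/FTnKO against WT mice (adjusted p 0.0476). The smallest p that this two-sided exact permutation test allows is 0.00216 with 6 against 6 mice, and it is larger with 6 against 5. The highest Atp1b2 to Atp1b1 ratio (0.502) was that of APP/PS1/FTnKO mouse 16974, whose RNA integrity number of 7.6 was the lowest, and the highest Aldoc to Aldoa ratio (0.757) that of APP/PS1 mouse 16975 at 7.7, while WT mice were at 8.5 to 8.8. APP/PS1/FTnKO mouse 19720, at 8.6, had ratios of 0.423 and 0.751. The part of RNA integrity in these ratios was not tested.

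Other genes of the same pathways were mostly without calls as well. On the glial side of glutamate and amino acid handling, 0 of 10 genes were called in any comparison, the smallest FDR in APP/PS1 against WT mice being that of Glud1, glutamate dehydrogenase (0.16, FDR 0.342). Of 10 genes for potassium, water and ion handling 0 were called; Aqp4, the water channel of astrocyte endfeet, came nearest in APP/PS1 mice (0.46, FDR 0.0536) and Dag1, the gene of the dystroglycan that anchors it, in APP/PS1/FTnKO against WT mice (-0.20, FDR 0.0522). Of 5 other sodium pump subunits and 6 connexins of other cells, 0 were called in any comparison. Among 12 genes of glial metabolism Aldh1l2, a mitochondrial relative of Aldh1l1, was the only call, with a rise in APP/PS1 against WT mice (0.53, FDR 0.04998).

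On the neuronal side of the glutamate cycle, 1 of 6 genes was called. Slc17a7, which loads glutamate into synaptic vesicles, fell by 0.46 on the log2 scale in APP/PS1/FTnKO against WT mice (FDR 0.0396). It is also 1 of 8 excitatory neuron markers. The others were not called, although all 8 estimates were negative in this comparison (median -0.19 beside 0.0053 over all genes).

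The reactive genes of astrocytes set a contrast. Of 11 measured genes of a reactive list, 6 were called higher in APP/PS1 and 5 in APP/PS1/FTnKO against WT mice. Over all genes 1.5% and 3.87% were called in either direction. Estimates of the reactive genes were positive for 11 and 9 of 11, with medians of 0.93 and 0.905 (log2). Gfap rose by 2.78 (FDR 3.23e-04) and 2.53 (FDR 9.8e-04), and Serpina3n, a secreted protease inhibitor, by 1.67 (FDR 0.00189) and 1.46 (FDR 0.00632). Between the amyloid groups 0 of 11 were called. Of 18 other astrocyte markers, Slc14a1, a urea transporter, rose in APP/PS1 (1.39, FDR 0.00159) and in APP/PS1/FTnKO mice (1.11, FDR 0.00958) against WT mice. Grm3, a metabotropic glutamate receptor gene, fell by 0.52 in APP/PS1/FTnKO mice (FDR 0.0233), and the other 16 were not called.

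Of the lists for other cell types, that for microglia held the most calls. Of 12 microglial genes, 7 were called higher in APP/PS1 and 5 in APP/PS1/FTnKO against WT mice. Over all genes 1.5% and 3.87% were called in either direction. Trem2 led the microglial genes (2.37, FDR 9.59e-05, and 1.96, FDR 8.46e-04), whose estimates were positive for 12 and 10 of 12. Their summed level was 436 to 494 CPM in WT mice, while APP/PS1 mice had 604 to 1225 and APP/PS1/FTnKO mice 491 to 866. Lists for oligodendrocytes, their precursors, interneurons, endothelium, cerebellum, striatum and thalamus had 0 calls in each comparison. Summed oligodendrocyte markers were at 3982 to 6088, 3596 to 7425 and 5071 to 7919 CPM, and summed excitatory neuron markers at 5269 to 7084, 4736 to 6829 and 3950 to 5720, in the order WT, APP/PS1 and APP/PS1/FTnKO. Their part in the levels of the 10 genes was not tested.

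The 10 genes varied together from mouse to mouse. Across 17 mice, the median Pearson r of their 45 pairs was 0.745 on log2 CPM, and 40 pairs were above 0.5. With genotype and sex means removed the median was 0.789 and 43 pairs were above 0.5. Aldoc followed the mean of the other 9 most closely (r = 0.925, rho = 0.838) and Slc1a2 least (r = 0.495, rho = 0.407). These correlations are descriptions, since all values of a mouse share a library and its scaling.

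On the mean of the 10 genes, places 1 to 6 of the 17 mice were held by mice of the amyloid groups, and the WT mice stood between the 7th and the 15th place. All 10 genes were above their own median in 5 mice, which were APP/PS1 mice 16975 and 19723 and APP/PS1/FTnKO mice 16974, 19720 and 18943. At the other end, the lowest means were those of APP/PS1 mice 19744 and 19619, below all 5 WT mice.

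**Figure D3:**
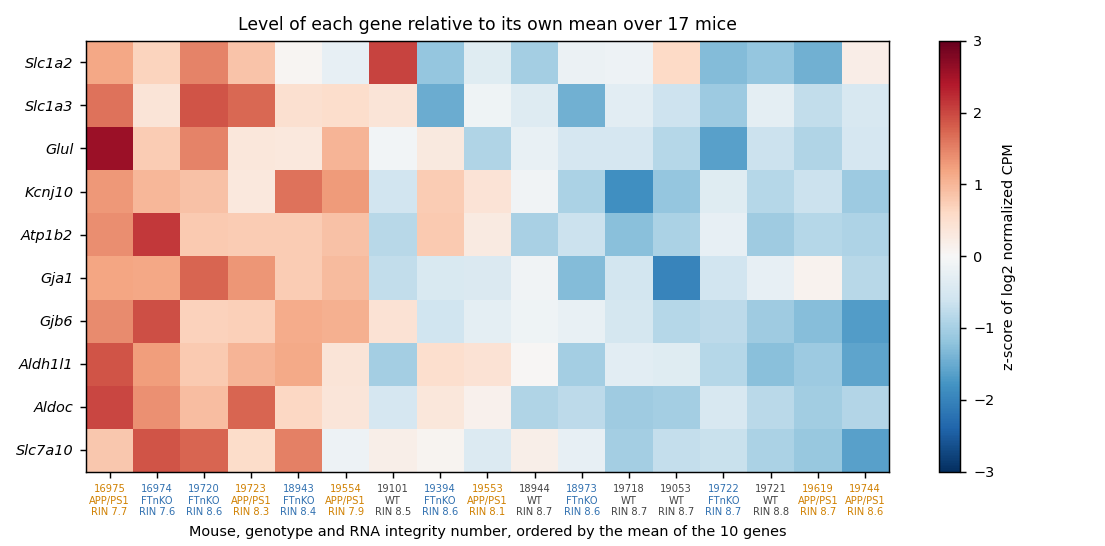
Level of each of the 10 genes in 17 mice as a z-score of log2 normalized CPM over those mice, with mice ordered from the highest to the lowest mean and labelled by genotype and RNA integrity number. Whole columns are red or blue: 5 mice had all 10 genes above the median, and both ends of the order are held by APP/PS1 mice.

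The mean z-score of the 18 other astrocyte markers followed that of the 10 genes at r = 0.939 over the 17 mice (rho = 0.873), the highest of the lists. Genes for glial glutamate and amino acid handling were at 0.877, oligodendrocyte precursor markers at 0.826 and microglial markers at 0.756, and the neuronal side of the glutamate cycle was at -0.788. Of the 10 most similar single genes, Mlc1 (r = 0.945), an astrocyte membrane protein, and Plpp3 (r = 0.935), a lipid phosphatase among the other astrocyte markers, were in the lists. The highest was Rpl37a (r = 0.957, rho = 0.858, and 0.94 without the 2 mice farthest from the median), and Rps29, Rps15, Rps20 and Rps14, also ribosomal protein genes, were at 0.927 to 0.945. The others were mt-Co1, encoded in the mitochondrial genome, Ctso, a lysosomal protease gene, and Eif3f, a translation factor gene. Over 81 ribosomal protein genes the median r was 0.829, against 0.0333 over all 17393 gene symbols tested outside the 10 (1 gene kept for each symbol, ribosomal protein genes included), where the choice of ribosomal genes as a group was made after the similar genes were seen. Over 21 mitochondrially encoded genes, a group also chosen afterwards, it was 0.578. The part of ribosomal protein genes, or of what moves them, in these levels was not tested.

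RNA integrity differed between the mice and between the genotypes. The RNA integrity number (RIN), a score in which a lower value means more degraded RNA, was 8.5 to 8.8 in the 5 WT mice, 7.7 to 8.7 in APP/PS1 mice (median 8.2) and 7.6 to 8.7 in APP/PS1/FTnKO mice (median 8.6). Addition of RIN to the fit was planned for the genotype effects, while the reading of its own term was added after the data had been seen.

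All 10 genes had higher estimates at lower RIN at equal genotype and sex. For 6 of 10 the term was called by edgeR, where 8.4% of all genes were called and 3.97% were called as higher at lower RIN. Per unit of RIN, Gjb6 fell by 0.56 (SE 0.093, FDR 0.00465), Atp1b2 fell by 0.38 (SE 0.061, FDR 0.00422) and Kcnj10 fell by 0.43 (SE 0.12, FDR 0.0316) on the log2 scale. Aldh1l1, Aldoc and Slc7a10 were also called, with FDR of 0.0242 to 0.0399. Slc1a2 (-0.17, FDR 0.266), Slc1a3 (-0.21, FDR 0.248), Gja1 (-0.18, FDR 0.255) and Glul (-0.23, FDR 0.0902) were not.

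The calls for the RIN term depended on the mice in the fit, among the 10 genes and over all genes alike. With each mouse left out in turn, 1 to 8 of the 10 genes and 106 to 1910 of all genes were called, beside 6 and 1463 in 17 mice. The count was 1 without APP/PS1/FTnKO mouse 16974, which had the lowest RIN, 2 without APP/PS1 mouse 16975, 19619 or 19744 and 3 without APP/PS1/FTnKO mouse 19722, while all-gene calls were 106 without 16974 and 468 to 787 without each of the others. The estimates themselves stayed negative in every such fit, and without 16974 that of Kcnj10 was -0.616, of Aldoc -0.477 and of Slc7a10 -0.56 log2 units per RIN unit. Gjb6 was called in all 17 of these fits (-0.69 to -0.509). The count was 0 of 10 with WT mouse 19622 included, where 26 of all genes were called, and 0 of 10, with 0 of all genes, in the 14 mice whose RIN was 8 or more, although the estimates there, from -0.36 for Atp1b2 to -0.85 for Gjb6 among the 6 genes, were of like size or larger. Within APP/PS1 mice alone the slopes were -0.16 to -0.625 and within APP/PS1/FTnKO mice -0.125 to -0.467 log2 units per RIN unit, all 10 negative in each. APP/PS1/FTnKO mouse 19720 was an exception to the pattern, with all 10 genes high at a RIN of 8.6.

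**Figure D4:**
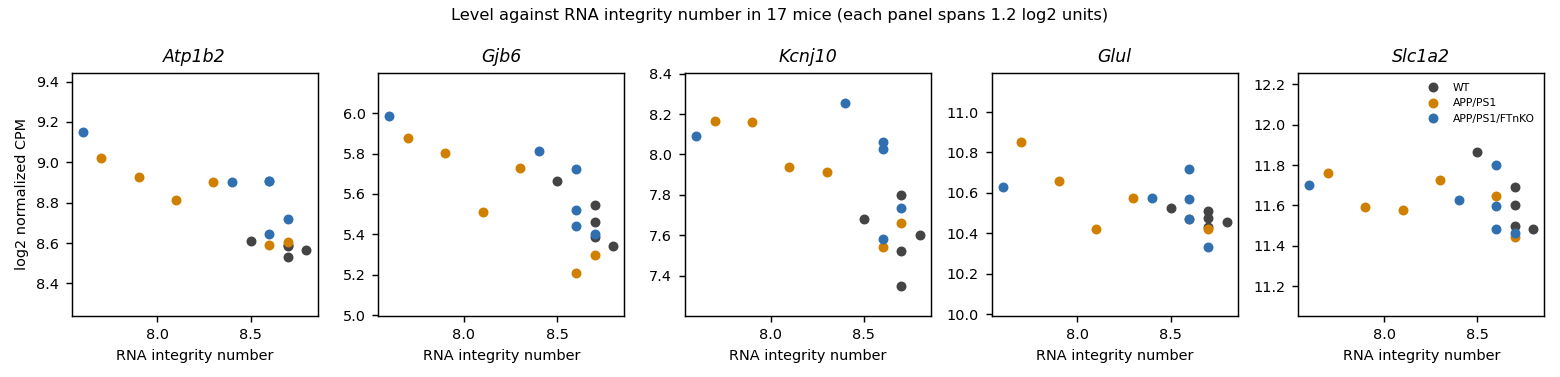
Log2 normalized CPM of 5 of the genes against RIN in 17 mice, coloured by genotype, each panel spanning 1.2 log2 units. The mice with a RIN of 7.6 to 7.9 are APP/PS1 and APP/PS1/FTnKO mice with high Atp1b2 and Gjb6, and the WT mice sit at 8.5 to 8.8.

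With RIN in the fit, the estimates against WT mice moved downwards for all 10 genes in both amyloid groups. For Atp1b2 they were 0.053 (FDR 0.869) in APP/PS1 and 0.19 (FDR 0.0589) in APP/PS1/FTnKO mice, and for Kcnj10 in APP/PS1/FTnKO mice 0.25 (FDR 0.196). In APP/PS1 against WT mice 5 of 10 estimates turned negative, those of Slc1a2 (-0.077), Glul (-0.009), Gjb6 (-0.165), Aldh1l1 (-0.043) and Slc7a10 (-0.173). WT mice cover a narrow part of the RIN range, so that RIN and genotype are only partly separable.

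Other lists moved with RIN too. At lower RIN, 8 of 10 oligodendrocyte markers, 4 of 5 precursor markers and 6 of 18 other astrocyte markers were called as higher. So were 3 of 11 reactive astrocyte genes and 2 of 12 microglial genes, whereas 5 of 8 excitatory neuron markers were called as lower. Of all 17414 genes, 691 were called as higher and 772 as lower. By sign alone, 10, 4, 16, 10 and 11 genes of the first 5 lists were higher, and 1 excitatory neuron marker was. The median change per RIN unit was -0.60 for oligodendrocyte markers, -0.55 for reactive astrocyte genes, -0.43 for microglial genes and 0.44 for excitatory neuron markers, beside -0.37 for the 10 genes and -0.0099 over all genes. The part of RNA integrity and of these other cell types in the levels of the 10 genes was not tested.

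The start of the genes was read from RefSeq promoter sequences of GRCm38.p6, since genes that move together may be searched for shared motifs. Of the 10 genes 9 had an entry, with 2 start sites for Aldoc, and Atp1b2 had none. The 250 bases before the start are shown for Kcnj10, whose estimates against WT mice were the largest, and for Slc7a10 and Slc1a3, which stood highest and lowest between the amyloid groups. Capitals mark TTGGC or its reverse complement, the core bound by nuclear factor I proteins, and ACAAT or its reverse complement, a core bound by SOX proteins.
Kcnj10, chr1:172340960-172341209, plus strand: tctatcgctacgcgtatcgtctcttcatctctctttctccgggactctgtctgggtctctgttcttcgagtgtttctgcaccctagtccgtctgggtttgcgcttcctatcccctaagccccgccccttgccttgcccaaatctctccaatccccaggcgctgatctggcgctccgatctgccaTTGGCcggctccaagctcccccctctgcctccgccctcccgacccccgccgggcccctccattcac
Slc1a3, chr15:8710808-8711057, minus strand: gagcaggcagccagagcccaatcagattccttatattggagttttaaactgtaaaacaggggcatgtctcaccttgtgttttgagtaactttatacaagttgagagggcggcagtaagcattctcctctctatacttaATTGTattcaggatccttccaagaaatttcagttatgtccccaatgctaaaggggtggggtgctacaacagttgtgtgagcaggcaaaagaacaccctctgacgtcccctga
Slc7a10, chr7:35186135-35186384, plus strand: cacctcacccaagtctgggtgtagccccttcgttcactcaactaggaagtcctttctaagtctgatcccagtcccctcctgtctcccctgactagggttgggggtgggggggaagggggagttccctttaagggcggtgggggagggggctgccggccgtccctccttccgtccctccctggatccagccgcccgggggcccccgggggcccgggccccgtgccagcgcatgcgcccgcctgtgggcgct
The Kcnj10 window holds TTGGC at position -66 from the start, the Slc1a3 window holds the SOX core at -112 and the Slc7a10 window holds neither. Searched on both strands, 4 of the 10 promoter windows hold TTGGC beside 41.5% of 32851 windows of the same length from all genes, and 2 hold ACAAT beside 27.7%. The full palindrome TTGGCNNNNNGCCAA, which contains TTGGC, is in 0 of 10 and in 0.0365% of all. The GC content ran from 44.8% (Slc1a2 and Slc1a3) to 69.6% (Slc7a10), and a match describes letters, not binding.

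WT mouse 19622 had levels of the 10 genes unlike those of the other mice. On the scaling of all 18 mice, 9 of the 10 genes were outside the range of the other 17 mice, 7 above and 2 below. Of 18 other astrocyte markers, 4 were above that range, 6 below and 8 within it. Atp1b2 was at 1149 CPM against 372 to 570, Kcnj10 at 504 against 164 to 305 and Aldoc at 1581 against 707 to 1081. These were 3.00, 2.59 and 2.20 times the median of the other 5 WT mice.

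The transporters for glutamate parted ways in this library. Slc1a2 was at 1175 CPM against 2804 to 3714, and Slc1a3 at 866 against 572 to 827, so that the ratio of Slc1a3 to Slc1a2 reads was 0.738 beside at most 0.239 elsewhere. Glul was lower (1080 against 1289 to 1858), Gja1 (271 against at most 236), Gjb6 (78.5 against at most 63.6) and Slc7a10 (50.8 against at most 45.1) were higher, and Aldh1l1 alone lay within the range of the others (67.1). Per kilobase, Aldoc took the first place from Glul with 485 against 325, and Slc1a2 moved from the second to the 6th place.

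**Figure D5:**
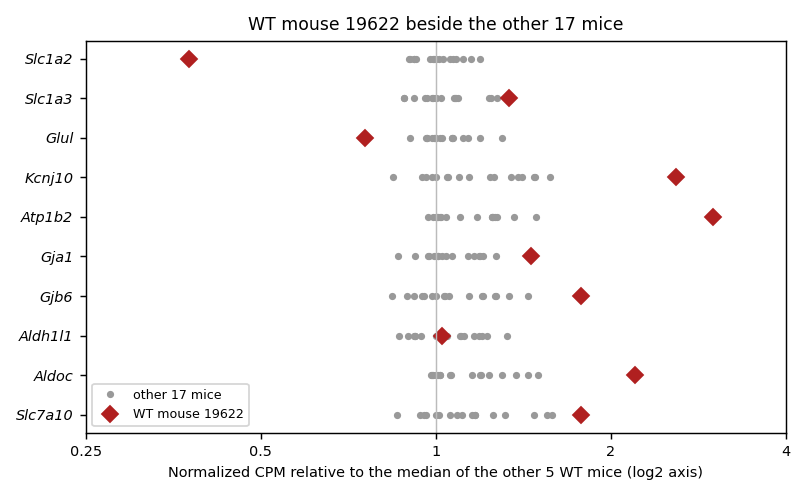
Normalized CPM of the 10 genes in WT mouse 19622 (red diamonds) and the other 17 mice (grey points), divided by the median of the other 5 WT mice, on a log2 axis and on the scaling of all 18 mice. Atp1b2 lies at 3.00 and Slc1a2 at 0.376, and Aldh1l1 at 1.02 is the gene within the range of the others.

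Purkinje cell and granule cell genes of the cerebellar list were high in the same library, with Car8 at 587 CPM against at most 13.1 and Zic1 at 575 against at most 42.9, and oligodendrocyte markers summed to 11270 CPM. Microglial markers were below the range of the other mice in 12 of 12 cases and excitatory neuron markers in 8 of 8.

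The genotype comparisons depended on this mouse. With all 18 mice edgeR called 0 of 10 genes in each comparison. Of all genes it called 1.2% in APP/PS1 against WT mice, 0.0116% between the amyloid groups and 1.51% in APP/PS1/FTnKO against WT mice. An unadjusted p under 0.05 was found for 0 of 10 genes each time. Among all 17285 tested genes it was found for 2475, 1152 and 3309, in the same order. The median log2 fold change of the 10 genes against WT mice was then 0.029 in APP/PS1 and 0.055 in APP/PS1/FTnKO mice, beside 0.13 and 0.17 without it. The mean of 6 WT libraries mixes the profile of 19622 with those of the other 5, and the counts alone do not say what tissue it came from.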

How the data were processed

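Frontal cortical mRNA of 18 mice had been sequenced as stranded libraries. Per the labels and the methods of the study, the authors trimmed reads with Trimmomatic 0.33, checked them with FastQC 0.11.7, aligned them with HISAT2 2.1.0 to GRCm38 and deposited the featureCounts gene counts without normalization. The submitters' processing notes also name an mm9 build. The strand setting of counting was not given in the sources used here. These 10 genes and all lists were chosen with earlier results of these data known.

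Counts were filtered (filterByExpr, minimum count 10) and scaled with TMM, and edgeR 4.0.16 (R 4.3.3) fitted genotype and sex with its quasi-likelihood test over all 17414 genes in 17 mice. Calls are genes with a Benjamini-Hochberg FDR below 0.05. CPM were computed per 1000000 reads of the scaled library, with a prior count of 2 for log2 values. WT mouse 19622 was described on a scaling of all 18 mice. P-values measure the spread between these mice. Ratios were tested with exact permutation tests in SciPy 1.17.1. Levels per kilobase used the union of GENCODE vM21 exons, whose IDs matched 99.4% of the table. No pair of libraries of the same genotype agreed within sampling noise.

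The fit was first tested on simulated data for APP/PS1 against WT in 17 mice. There it recovered 81% of changes of 1 log2 unit and 46% of those of 0.5, so smaller changes can be missed. Alternatives were DESeq2 1.42.0, all 18 mice, other scalings, no filter, a RIN covariate, no sex term, the compared genotypes alone and each mouse left out. A subset with a RIN of at least 8 and the RIN term itself were added after seeing the data. The labels give no replicate numbers, and those assigned here in record order pair no mice. Named besides the 10 genes are Fntb, App and Gfap as checks, ratio partners and the 10 genes most correlated with the mean of the 10. From the lists, some of the called genes with the smallest p are named or, without a call, some of those nearest to one. Cbln3, Car8, Zic1 and Emx1 were named after their values were seen, and 0 columns of the table were unused. Some genes of the lists are not reported here.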

Additional observations from a re-analysis of the deposited data

Results flagged for a closer look

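WT mouse 19622 lay far from the other WT mice in 9 of the 10 genes and 3 of 4 ratios, by a gap test within groups of 4 to 10 samples. The outlying levels were Slc1a2 1175, Slc1a3 866, Glul 1080, Gja1 271, Gjb6 78.5, Kcnj10 504, Aldoc 1581, Atp1b2 1149 and Slc7a10 50.8 normalized CPM. The outlying log2 ratios were -0.44 for Slc1a3 to Slc1a2, where the other 5 WT mice had -2.42 to -2.14, 0.43 for Aldoc to Aldoa (-1.24 to -0.985) and -0.32 for Atp1b2 to Atp1b1 (-1.88 to -1.61). The test was made in 56 groups of values and 12 were flagged, all of them groups that hold this mouse. Chance flags about 1 in 20 groups, but the 12 share 1 library that was already set apart by its marker genes, so that their number is not read against that rate. Outside the 10 genes, Cbln3 (864 CPM) and Cbln1 (492 CPM), which encode cerebellin proteins, were high in this library against at most 0.995 and 9.66 in the others.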

How the results depend on the processing

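No genotype comparison gave a call among the 10 genes with edgeR under all 18 mice, RLE or library-size scaling, a RIN covariate, no sex term or the subset with a RIN of at least 8. For APP/PS1/FTnKO against WT mice the count of 0 became 2 with DESeq2 in 17 mice, 2 without a filter and 1 with only the compared genotypes, and 0 to 2 with each mouse left out. Calls over all genes, 674, were 1304, 971, 859 and 206 to 987 in those fits. The count of ratios past the threshold, 0, was 0 to 2 with each mouse left out. The count for the RIN term, 6, was 0 with all 18 mice, 0 in the RIN subset and 1 to 8 with each mouse left out. The cause of these shifts was not tested.

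Signs of small log2 estimates turned as follows. With all 18 mice, APP/PS1 against WT: Gjb6 -0.056, Atp1b2 -0.142 and Slc7a10 -0.103; APP/PS1/FTnKO against WT: Slc1a2 0.153, Slc1a3 -0.057 and Atp1b2 -0.073. With DESeq2 in 18 mice these were -0.059, -0.143, -0.106, 0.145, -0.062 and -0.076, and Aldoc was -0.002 in APP/PS1/FTnKO against WT mice. With library size only, Slc1a2 was 0.003 between the amyloid groups and 0.016 in APP/PS1/FTnKO against WT mice. With a RIN covariate, APP/PS1 against WT gave Slc1a2 -0.077, Glul -0.009, Gjb6 -0.165, Aldh1l1 -0.043 and Slc7a10 -0.173, the amyloid groups Slc1a2 0.021, Glul 0.03, Gja1 0.015 and Aldoc 0.059, and APP/PS1/FTnKO against WT Slc1a3 -0.035. Slc1a2 in APP/PS1 against WT mice was -0.007 without a sex term and -0.002 with only those genotypes. In the RIN subset, APP/PS1 against WT gave Slc1a2 -0.026, Glul -0.001, Gjb6 -0.044 and Slc7a10 -0.047, and the amyloid groups Glul 0.066, Gja1 0.004 and Aldoc 0.013. With WT mouse 19622, log2 ratio differences of Slc1a3 to Slc1a2 were -0.199 (APP/PS1) and -0.286 (APP/PS1/FTnKO), of Gjb6 to Gja1 -0.01 (APP/PS1/FTnKO) and of Aldoc to Aldoa -0.004 (APP/PS1) against WT mice.

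With each mouse left out in turn, estimates that changed sign ranged, between the amyloid groups, from -0.058 to 0.017 for Slc1a2, -0.059 to 0.039 for Glul, -0.068 to 0.026 for Gja1, -0.006 to 0.142 for Gjb6, -0.039 to 0.101 for Aldh1l1, -0.079 to 0.059 for Aldoc and -0.005 to 0.116 for Atp1b2. Against WT mice they ranged from -0.039 to 0.054 for Slc1a2 and -0.022 to 0.118 for Slc7a10 in APP/PS1 mice, and from -0.054 to 0.042 for Slc1a2 and -0.056 to 0.068 for Slc1a3 in APP/PS1/FTnKO mice. The ratio differences of APP/PS1/FTnKO against WT mice ranged from -0.022 to 0.076 for Gjb6 to Gja1 and -0.014 to 0.056 for Slc1a3 to Slc1a2. No paired analysis was possible because the labels give no replicate numbers, and numbers assigned in record order pair no mice.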
